A study of Mus musculus with 12 samples.

Results

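The 10 genes described here code for integrin subunits of muscle and matrix-producing cells: the alpha subunits Itga1, Itga3, Itga5, Itga6, Itga7, Itga8, Itga11 and Itgav and the beta subunits Itgb1 and Itgb5. They were chosen by name as 10 of the 78298 genes in the deposited tables. RNA was taken from the established mouse myoblast line C2C12, either wild type (WT, 6 libraries) or of a line with a genetically encoded calcium indicator (RGECO, 5 libraries used). All tissues had been kept on methacrylated gelatin, a hydrogel made from denatured collagen, and differentiated for 14 days in horse serum (10%) with IGF-1 (50 ng per ml) and aminocaproic acid (1 mg per ml). The sources used here do not say how the indicator was introduced or whether the RGECO line is 1 clone.

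Integrins are cell surface receptors, each made of an alpha and a beta chain, that tie the matrix outside the cell to actin inside it. The alpha chain largely sets which matrix protein is bound. With the beta1 chain, alpha1 and alpha11 bind collagens, alpha3, alpha6 and alpha7 bind laminins, and alpha5 and alpha8 bind fibronectin, nephronectin and other proteins that carry the short RGD motif. Alpha v pairs with several beta chains, among them beta1, beta3, beta5, beta6 and beta8. In skeletal muscle the laminin receptor alpha7beta1 anchors the fibre to its basement membrane and to the tendon, and alpha5beta1 is known from developing muscle.

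The 11 libraries held 5881622 to 11926220 counts. The share of mitochondrial transcripts ran from 0.204% to 1.68% in WT and from 0.298% to 1.33% in RGECO, and that of the nuclear RNA Malat1 from 0.156% to 0.898% and from 0.180% to 0.645%. RGECO replicate 4 held 825 counts, none of them in a member, and is left out unless all 12 libraries are named. Because it is near empty, a fit with all 12 libraries cannot decide whether a call is weak or firm. Muscle markers were high in every library, with a summed level of 20312 to 28537 CPM (counts per 1000000, scaled by TMM) in WT and 25133 to 31659 in RGECO. Of these 11 marker genes 1 was higher and 2 were lower in RGECO, beside 3.42% higher and 4.93% lower of all genes tested. Markers of myoblasts and reserve cells summed to 239 to 307 CPM in WT and 201 to 247 CPM in RGECO, with 1 of 5 higher and 1 lower. Markers of endothelial, immune, Schwann and neuronal, and epithelial cells summed to at most 4.35, 36.1, 42.5 and 5.43 CPM in any library, and Emcn, Adgre1, Snap25, Rbfox3 and Epcam had 0 counts throughout. Tubb3, the 1 Schwann and neuronal marker tested, was higher in RGECO (log2 fold change 0.78, RGECO minus WT, edgeR adjusted p = 0.0255). The endothelial, immune and epithelial markers tested did not pass.

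The promoters of Itga11 and Itga1 are shown because these code for the collagen-binding chains, of which Itga11 differed between the lines and Itga1 was too low for a firm value. Each run is the 250 bases before the RefSeq start site, 5′ to 3′ on the gene's strand, with the E-box (CANNTG, a motif read by MyoD-type and other helix-loop-helix factors) in capitals.
Itga11, chr9:62677605-62677854, plus strand, GRCm38.p6: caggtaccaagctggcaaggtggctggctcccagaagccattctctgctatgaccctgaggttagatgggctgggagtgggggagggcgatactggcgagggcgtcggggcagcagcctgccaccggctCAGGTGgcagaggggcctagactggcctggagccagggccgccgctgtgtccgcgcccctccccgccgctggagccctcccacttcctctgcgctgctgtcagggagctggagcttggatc
Itga1, chr13:115101965-115102214, minus strand, GRCm38.p6: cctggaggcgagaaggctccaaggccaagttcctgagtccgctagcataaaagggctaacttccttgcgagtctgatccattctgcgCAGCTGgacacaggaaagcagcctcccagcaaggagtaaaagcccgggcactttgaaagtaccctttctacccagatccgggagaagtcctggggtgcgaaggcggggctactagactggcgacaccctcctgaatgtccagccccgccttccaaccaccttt
Both strands were searched for the E-box and for the Sp1 box, spelled GGGCGG. The AP-1 site was searched as TGANTCA. The MCAT element of muscle genes was searched as CATTCC. The TATA box was searched as TATAAA. Each of these promoters held 1 E-box, at -121 in Itga11 and -163 in Itga1 counted from the start site, and no match to the other 4 motifs. An E-box was found in 66.2% of all 32851 promoters of the same length, so its presence here is common. GC content was 68.4% for Itga11 and 57.6% for Itga1. Promoters of 8 of the 10 members were matched in RefSeq, and Itga6 and Itga7 had no entry.

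In levels per transcript length (TPM), Itga7 and Itgb1 stood above all other members in both lines. Median TPM in WT ran from Itga7 at 427 and Itgb1 at 408 through Itga5 at 141, Itgb5 at 78.2, Itgav at 49.8, Itga6 at 38.9 and Itga3 at 24.7 to Itga11 at 10.1 and Itga1 at 0.330. The ranges over WT libraries overlapped for Itga7 and Itgb1, for Itgav and Itga6, for Itga6 and Itga3 and for Itga1 and Itga8, and the other neighbours in this order were apart. In RGECO the median TPM was 605 for Itga7, 575 for Itgb1, 137 for Itga5, 75.5 for Itgb5, 51.4 for Itga6, 47.6 for Itgav, 26.4 for Itga3, 2.54 for Itga11 and 0.0110 for Itga1. There the overlapping neighbours were Itga7 with Itgb1, Itga6 with Itgav and Itga1 with Itga8. Itga8 (ENSMUSG00000026768, chromosome 2: 12106632 to 12301922, GRCm38), the nephronectin receptor chain, was seen with 3 counts in WT and 0 in RGECO, below the floor of 3 counts per library (0.246 to 0.525 CPM), so no fold is given for it.

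In counts, 9 of the 10 members passed the filter on low counts, Itga8 being the exception. Of these 9, 0 rose and 2 fell in RGECO, against 3.42% higher and 4.93% lower (8.35% in all) of the 13318 genes tested with edgeR's quasi-likelihood test and Benjamini-Hochberg adjustment. The 2 were Itga11 and Itga1, and Itga1 passed the filter only through WT, where it is higher, so its call is no independent support. The median log2 fold change (RGECO minus WT, called log2 ratio for single genes) was 0.01 over the 9 members and -0.01 over all genes tested. In 7 of the 9, changes beyond 2-fold either way fell outside the 95% interval, as they did for 74.0% of all genes tested. The lines did not overlap in 1 member, Itga11, beside 7.97% of all genes tested (3.47% higher and 4.5% lower in RGECO). The tissues are bulk samples, so fewer cells of a type and less RNA per cell cannot be told apart.

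**Figure D1:**
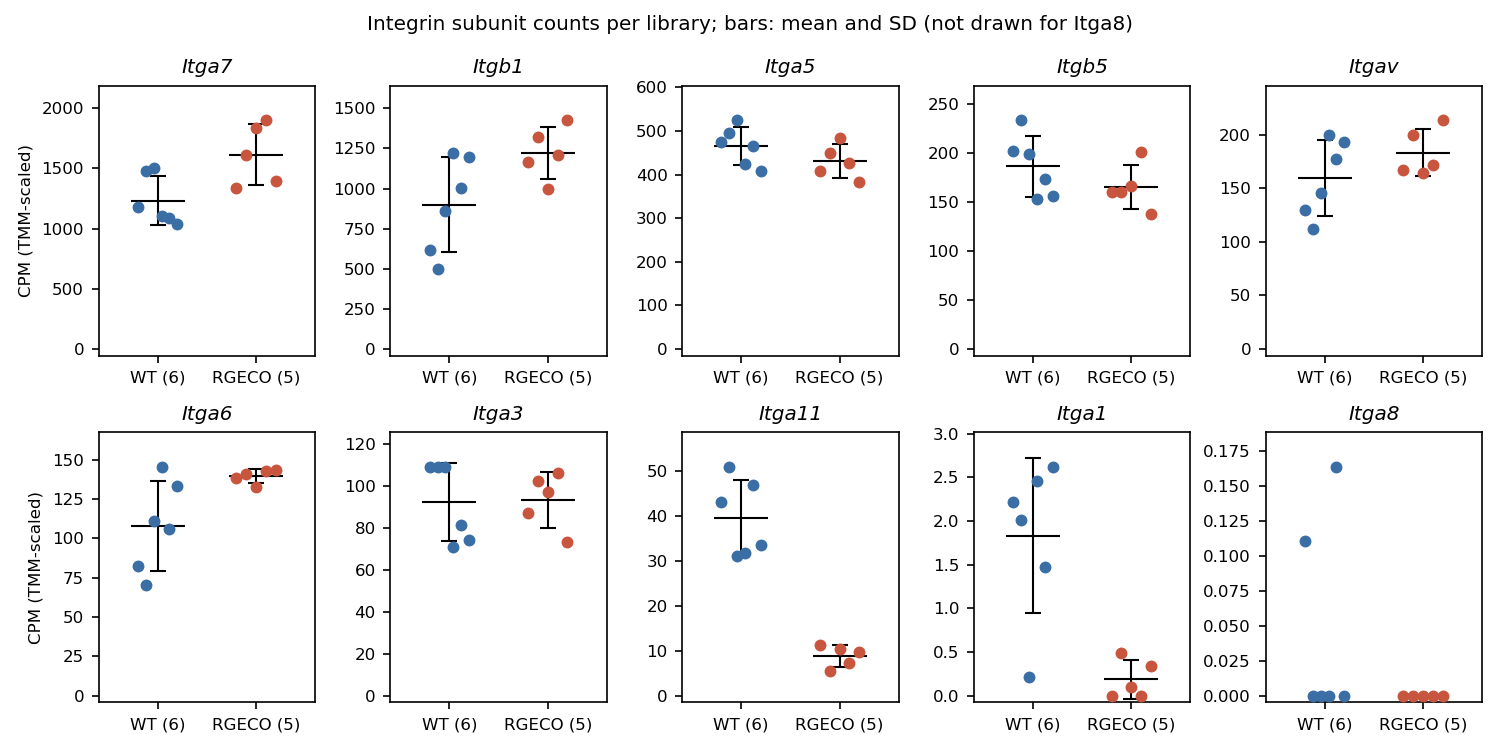
CPM of the 10 integrin members in each library (points), with the mean and SD of each line (bars, not drawn for Itga8) for 6 WT and 5 RGECO libraries, each panel on its own linear axis. Itga11 is the member whose lines do not overlap, and in Itgb1 the WT libraries spread from 498 to 1222 CPM while the RGECO libraries lie between 995 and 1425.

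Among the collagen-binding chains, Itga11 fell in RGECO. Itga11 (ENSMUSG00000032243, chromosome 9: 62677826 to 62783982, GRCm38), a receptor for fibrillar collagen made mainly by mesenchymal cells, ranged from 31.0 to 51.0 CPM in WT with a median of 38.3. In RGECO replicates 1, 2, 3, 5 and 6 Itga11 was at 11.3, 5.41, 10.4, 7.18 and 9.70 CPM. Every RGECO library was thus below every WT library. Itga11 averaged 39.6 ± 8.54 CPM in the WT libraries (SD, n = 6) against 8.78 ± 2.42 CPM in the RGECO libraries (SD, n = 5), and the log2 fold change came to -2.17 ± 0.21 (SE, 95% interval -2.61 to -1.72, edgeR adjusted p = 1.60e-05). This call held under each alternative computed, with Itga11 between -2.27 and -1.69.

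Itga1 (ENSMUSG00000042284, chromosome 13: 114953096 to 115101964, GRCm38), whose product with beta1 binds collagen IV and other collagens, was close to the detection limit. In WT replicates 1 to 6 Itga1 was at 2.22, 2.01, 0.208, 2.46, 1.48 and 2.62 CPM, and in RGECO at 0, 0.492, 0.0960, 0 and 0.334 CPM. WT replicate 3 lay inside the RGECO range and the other 5 WT libraries above it. The fitted log2 fold change of Itga1 was -3.06 ± 0.73 (SE, edgeR adjusted p = 0.0162) on 110 counts in WT and 10 in RGECO. Itga1 passed the filter only through the WT libraries, where it is higher, so this call is no independent support for a difference. Without WT replicate 1, 2, 4, 5 or 6, and with all 12 libraries, Itga1 failed the filter and could not be fitted. The call was lost without RGECO replicate 3 (edgeR adjusted p = 0.0509) and on log2(TPM + 1), where the log2 fold change was -0.37 (adjusted p = 0.184 by limma). The gene Pelo lies inside the span of Itga1 on the same strand with 1095 counts over the 11 libraries and fell as well (log2 fold change -0.81, edgeR adjusted p = 0.0154). Reads shared between Pelo and Itga1 cannot be told apart here, so the value of Itga1 is uncertain.

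Itga11 is known from fibroblast-like cells, and most fibroblast markers had lower values in RGECO without passing. Of 8 markers 6 were tested, of which Dcn rose (log2 fold change 0.96, adjusted p = 0.00193) and Pdgfrb fell (-1.59, adjusted p = 1.03e-05), both by the same edgeR test. Over all genes tested, 3.42% were higher and 4.93% lower. Dpt (-0.93), Lum (-0.32), Col15a1 (-0.20) and Pdgfra (-0.20) were lower without passing, and the median of the 6 was -0.26. The summed level of the list was 249 to 352 CPM in WT and 314 to 481 CPM in RGECO, of which Dcn made up 180 CPM on average in WT and 350 CPM in RGECO. The markers not tested were Tcf21, with 0 counts, and Thy1, with 1 count, summed over all 11 libraries. Of the 5 smooth muscle markers 3 were tested and Tagln fell, with a summed level of 1545 to 2182 CPM in WT and 1142 to 1673 CPM in RGECO. The part of such cells in the Itga11 value was not tested.

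The genes whose profile over the 11 libraries was most like that of Itga11 were Nedd9, an adaptor of focal adhesions, Cdc42ep1, an effector of the GTPase Cdc42, and the cytokine receptor Il17ra. The root mean square differences of their standardised log2 CPM from Itga11 were 0.233, 0.249 and 0.262 SD. The log2 fold changes were -0.80 for Nedd9, -1.22 for Cdc42ep1 and -0.66 for Il17ra, beside the -2.17 of Itga11, so their likeness is in shape and not in size. Itga11 was chosen for this comparison with its difference known, and the likeness is a description.

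Among the laminin-binding chains no call was made. Itga7 (ENSMUSG00000025348, chromosome 10: 128933818 to 128958282, GRCm38), the main alpha chain of differentiated muscle, ranged from 1039 to 1504 CPM in WT with a median of 1142. In RGECO replicates 1, 2, 3, 5 and 6 Itga7 was at 1335, 1610, 1833, 1900 and 1399 CPM. WT replicates 2 and 3, at 1481 and 1504 CPM, lay inside the RGECO range and the other 4 WT libraries below it. The log2 fold change of Itga7 was 0.39 ± 0.13 (SE, 95% interval 0.10 to 0.68, edgeR adjusted p = 0.0909). Itga7 passed as higher on log2(TPM + 1) at 0.47 (adjusted p = 0.0298 by limma), with DESeq2 at 0.40 (adjusted p = 0.0476), without WT replicate 2 at 0.46 (edgeR adjusted p = 0.0478) and with the mitochondrial share as a covariate at 0.30 (edgeR adjusted p = 0.0336). Itga7 passed under 5 of the 21 alternatives in all, log2(TPM + 0.1) among them, and had no call under the other 16. With the Malat1 share as a covariate its log2 fold change was 0.25 (edgeR adjusted p = 0.0900), and with all 12 libraries 0.15 (edgeR adjusted p = 0.985).

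The profile of Itga7 was most like those of Nherf2, a scaffold protein, Lrp4, the agrin receptor of the neuromuscular junction, and the lipid transporter Abca7, at root mean square differences of 0.186, 0.213 and 0.227 SD over the same 11 libraries. None of these 3 genes passed (log2 fold changes 0.35, 0.28 and 0.34, edgeR adjusted p = 0.220, 0.180 and 0.131). Itga8 had too few counts for this comparison.

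Itga6 (ENSMUSG00000027111, chromosome 2: 71745616 to 71858416, GRCm38), an alpha chain of myoblasts and many epithelia, spread widely in WT and narrowly in RGECO. WT libraries ranged from 70.5 to 145 CPM with a median of 108, and RGECO replicates 1, 2, 3, 5 and 6 were at 139, 141, 132, 143 and 143 CPM. The RGECO values all lay within the upper part of the WT range. The log2 fold change of Itga6 was 0.37 ± 0.16 (SE, edgeR adjusted p = 0.176). Itga3 (ENSMUSG00000001507, chromosome 11: 95044474 to 95076801, GRCm38), known from epithelial adhesion to laminin, had nearly the same mean in both lines, 92.1 ± 18.6 CPM for WT (SD, n = 6) against 93.0 ± 13.2 CPM for RGECO (SD, n = 5). The 95% interval of the log2 fold change of Itga3 was -0.30 to 0.33.

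Among the RGD-binding chains, Itga5 (ENSMUSG00000000555, chromosome 15: 103344286 to 103366763, GRCm38), the fibronectin receptor chain, ranged from 407 to 524 CPM in WT with a median of 471, and RGECO replicates 1, 2, 3, 5 and 6 were at 407, 450, 484, 427 and 384 CPM. The lines overlapped, with a log2 ratio of -0.11 ± 0.10 (SE, 95% interval -0.32 to 0.09, edgeR adjusted p = 0.555). Itgav (ENSMUSG00000027087, chromosome 2: 83724397 to 83806916, GRCm38), the alpha chain of several vitronectin and latent TGF-beta receptors, ranged from 112 to 200 CPM in WT with a median of 162. In RGECO Itgav was at 167, 199, 164, 172 and 213 CPM, a range that overlapped WT, with a log2 ratio of 0.20 ± 0.15 (SE, edgeR adjusted p = 0.487). In TPM the median of Itgav was not higher in RGECO, at 47.6 against 49.8 in WT, so its direction depended on the measure.

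Neither beta chain passed, with the mean higher in RGECO for Itgb1 and lower for Itgb5. Itgb1 (ENSMUSG00000025809, chromosome 8: 128685654 to 128733200, GRCm38), the common partner of most of these alpha chains, was at 619, 498, 860, 1222, 1005 and 1197 CPM in WT replicates 1 to 6. In RGECO replicates 1, 2, 3, 5 and 6 Itgb1 was at 1167, 1319, 995, 1212 and 1425 CPM. WT replicates 1, 2 and 3 lay below all RGECO libraries, while WT replicates 4, 5 and 6 lay inside their range. The log2 fold change of Itgb1 was 0.44 ± 0.20 (SE, 95% interval 0.01 to 0.87, edgeR adjusted p = 0.211). Itgb5 (ENSMUSG00000022817, chromosome 16: 33829665 to 33949338, GRCm38), a partner of alpha v, ranged from 154 to 234 CPM in WT with a median of 186 and was at 160, 161, 166, 201 and 138 CPM in RGECO, overlapping WT, and its log2 ratio was -0.17 ± 0.13 (SE, edgeR adjusted p = 0.482). Estimated counts of Itgb5 were not whole in 9 of the 11 libraries, beyond a tolerance of 0.001, so some of its reads were shared with other features.

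Within WT, members differed in which libraries were high. Itgb1, Itga6 and Itgav were lowest in WT replicate 2, at 498, 70.5 and 112 CPM, and highest in WT replicate 4, at 1222, 145 and 200 CPM. Itgb5 and Itga3 were high where those were low, at 234 and 109 CPM in WT replicate 2 and 154 and 70.9 CPM in WT replicate 4. The mitochondrial share of counts was 0.754%, 0.204%, 0.530%, 1.68%, 1.16% and 1.59% in WT replicates 1 to 6, and the Malat1 share 0.430%, 0.156%, 0.566%, 0.784%, 0.641% and 0.898%. WT replicate 2 was thus lowest and WT replicates 4, 5 and 6 highest in both shares. In RGECO replicates 1, 2, 3, 5 and 6 the mitochondrial share was 0.509%, 0.726%, 0.625%, 0.298% and 1.33%.

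**Figure D2:**
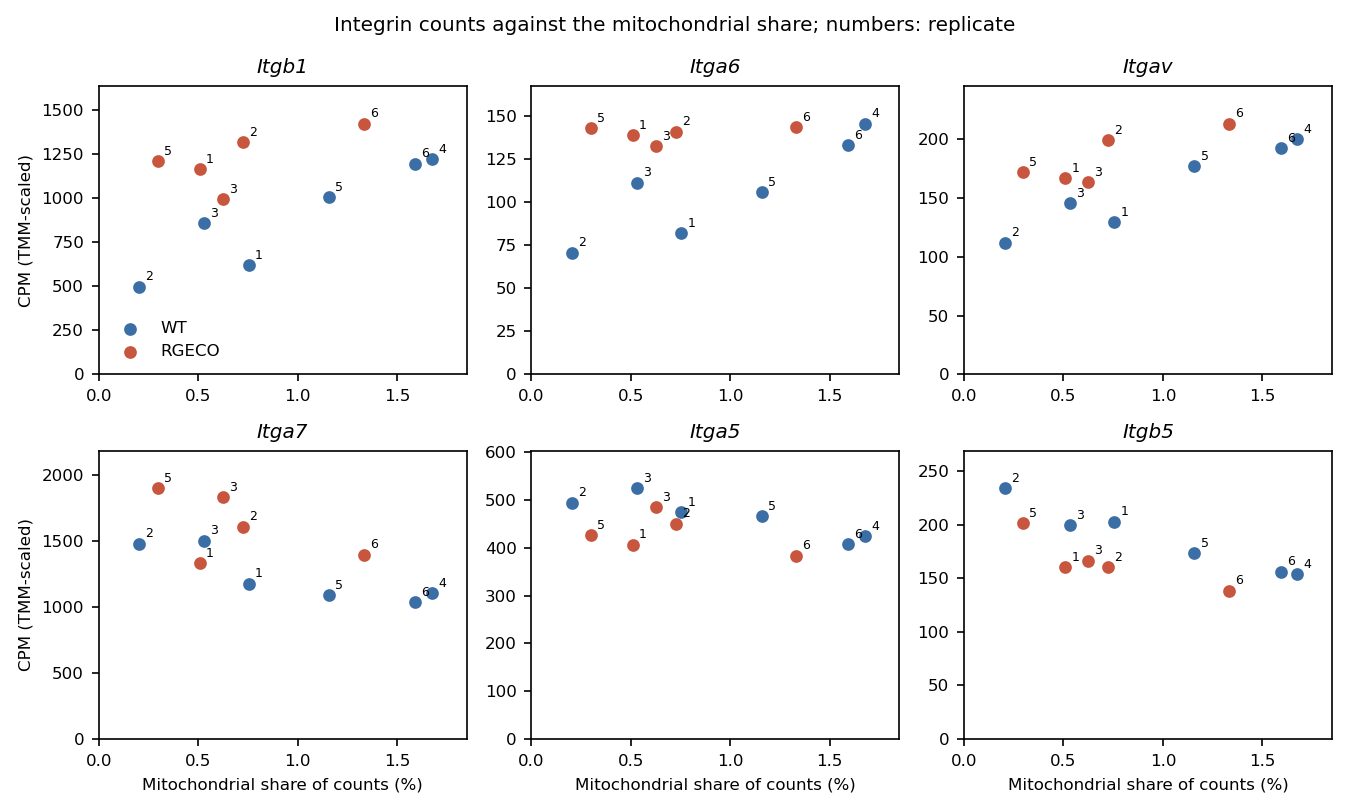
CPM of 6 integrin members (vertical axis, linear) against the mitochondrial share of counts in percent (horizontal axis), 1 point per library with its replicate number, for WT and RGECO. In WT, Itgb1 goes from 498 CPM at a share of 0.204% to 1222 CPM at 1.68%, and Itgb5 from 234 to 154 CPM.

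With the mitochondrial share as a covariate, 7 of the 9 members tested passed, 4 higher and 3 lower in RGECO, beside 12.1% higher and 11.4% lower (23.5% in all) of all genes in that fit. With the Malat1 share 6 passed, 3 higher and 3 lower, beside 10.5% and 10.3% (20.8% in all). Itga1, which passed the filter only through WT, is counted among the lower members in both fits. Itgb1 was at 0.69 ± 0.12 (SE, adjusted p = 5.68e-04) and 0.77 ± 0.14 (SE, adjusted p = 7.14e-04) in these edgeR fits, Itga6 at 0.53 and 0.59 (adjusted p = 0.00181 and 0.00254) and Itgav at 0.36 and 0.39 (adjusted p = 0.00341 and 0.0201). Itgb5 was lower in both, at -0.28 and -0.30 (adjusted p = 0.00874 and 0.0295). Itga7 passed with the mitochondrial share only, at 0.30 and 0.25 (edgeR adjusted p = 0.0336 and 0.0900). Itga5 and Itga3 passed in neither. Both fits gave WT and RGECO the same slope on the share, and whether the lines have the same slope was not tested. In RGECO, Itgb1 was at 1212 CPM at the lowest mitochondrial share (0.298%), 995 CPM at 0.625% and 1425 CPM at the highest (1.33%).

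**Figure D3:**
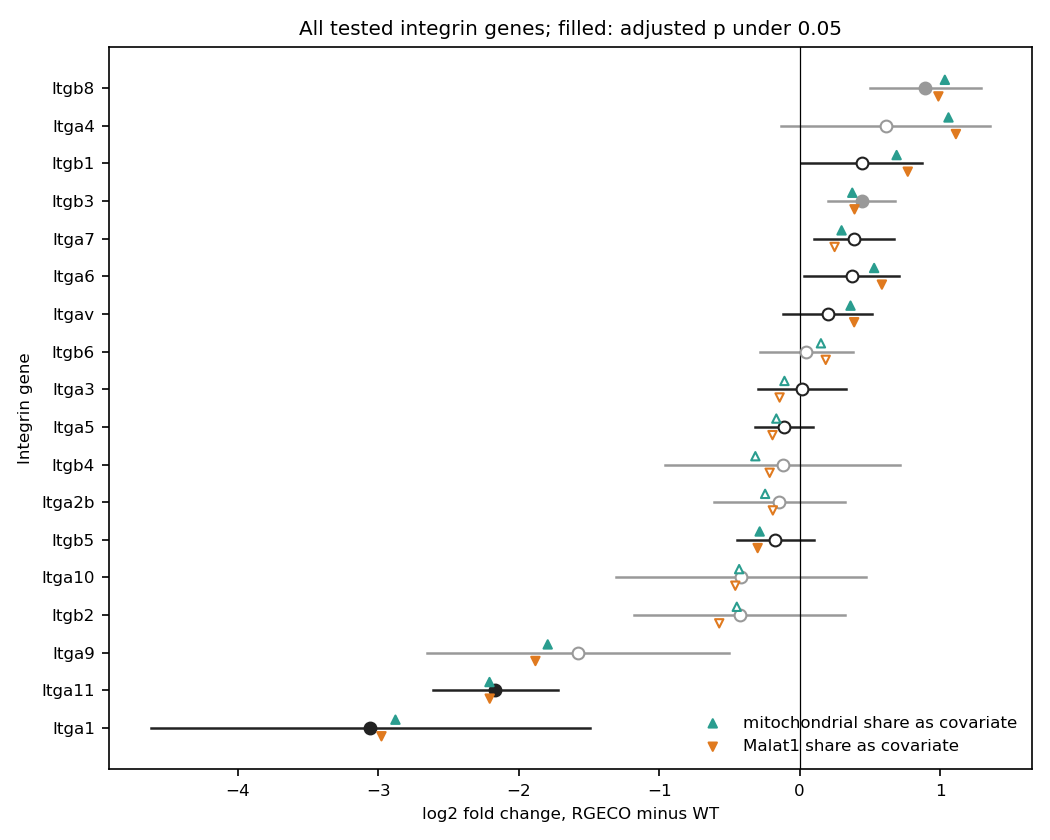
log2 fold change (RGECO minus WT) of the 18 integrin genes tested, with circles and 95% interval bars for the fit without covariates (members black, other subunits grey), and triangles for the fits with the mitochondrial or the Malat1 share as a covariate. Filled symbols passed adjusted p 0.05. Itga11 and Itga1 are filled on the left in all 3 fits, and Itgb1 moves from 0.44 to 0.69 and 0.77. Itga1 passed the filter on low counts only through WT, where it is higher.

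The shares of the alpha chain transcripts in each line are described here with no test, because they sum over the members. Laminin-binding chains made up 69.5% to 72.5% of the summed TPM of the 8 alpha members in WT and 77.0%, 78.6%, 77.7%, 81.8% and 78.3% in RGECO replicates 1, 2, 3, 5 and 6. RGD-binding chains made up 25.9% to 28.8% in WT and 18.0% to 22.6% in RGECO, and collagen-binding chains 0.926% to 2.02% and 0.170% to 0.394%. The ranges of the lines did not overlap in any of these 3 classes. The classes are parts of the same total, so these are not 3 separate results, and no rate over other genes was computed for such shares. Most of the laminin-binding share was Itga7, which did not pass in counts (edgeR adjusted p = 0.0909), and most of the collagen-binding share was Itga11. Itga7 alone made up 62.4% ± 1.69 of WT (SD, n = 6) against 69.7% ± 2.07 of RGECO (SD, n = 5), and Itga5 20.3% ± 1.33 (SD, n = 6) against 15.4% ± 1.46 (SD, n = 5). These shares add up to 100%, and a larger Itga7 share lowers the others.

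The TPM of Itgb1 equalled 27.9% to 91.4% of the summed alpha TPM in WT and 44.7% to 90.3% in RGECO. The mean was 57.7% ± 25.4 of WT (SD, n = 6) against 65.4% ± 17.8 of RGECO (SD, n = 5), a difference smaller than the spread within either line. Itgb5 made up 10.5% to 31.0% of the summed TPM of the 2 beta members in WT and 8.26% to 15.0% in RGECO, and the ranges overlapped.

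**Figure D4:**
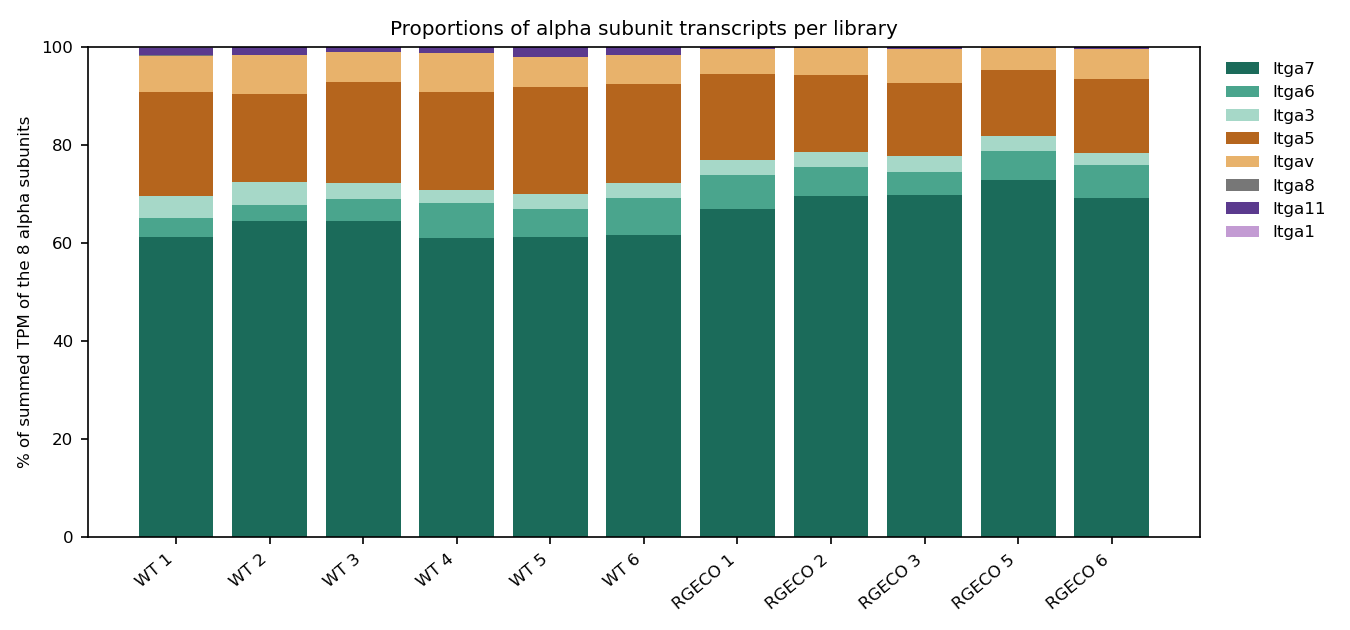
Percent of the summed TPM of the 8 alpha members taken by each of them (stacked bars from 0 to 100%), for 6 WT and 5 RGECO libraries. The Itga7 segment is between 61.1% and 64.6% in WT and between 67.0% and 72.8% in RGECO, and the Itga11 segment at the top nearly disappears in RGECO.

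Of the 17 other integrin subunits 9 were tested, of which 2 rose and 0 fell, beside 3.42% higher and 4.93% lower of all genes tested. Itgb8, a beta chain that with alpha v binds latent TGF-beta, ranged from 8.20 to 15.2 CPM in WT with a median of 12.7 and was at 18.4, 27.5, 19.5, 25.7 and 22.8 CPM in RGECO, and its log2 ratio was 0.90 ± 0.19 (SE, edgeR adjusted p = 0.00688). Itgb3, the beta chain of the vitronectin receptor, ranged from 62.4 to 85.2 CPM in WT with a median of 74.1 and was at 112, 91.2, 101, 109 and 89.0 CPM in RGECO, and its log2 ratio was 0.44 ± 0.11 (SE, edgeR adjusted p = 0.0231). In both genes every RGECO library was above every WT library. Itgb3 no longer passed when WT 4, RGECO 1 or RGECO 5 was left out (adjusted p = 0.0513, 0.0621 and 0.0517), with all 12 libraries (0.416), without the filter on low counts (0.0543) and with the replicate block (0.0673), all by edgeR. On log2(TPM + 1) neither passed (limma adjusted p = 0.0599 for Itgb8 at 0.66 and 0.0525 for Itgb3 at 0.52).

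Itga9, a receptor chain for tenascin and other ligands, was low, 2.27 ± 0.585 CPM for WT (SD, n = 6) against 0.749 ± 0.497 CPM for RGECO (SD, n = 5), with no overlap and a log2 ratio of -1.58 ± 0.51 (SE, adjusted p = 0.0678 by edgeR). Itga9 passed with DESeq2 (adjusted p = 0.0302) and, by edgeR, with all 12 libraries (0.0381), the mitochondrial share (0.0153) and the Malat1 share (0.0173) as a covariate. It passed the filter through WT. Itga4 was at 0.61, Itgb6 at 0.05, Itgb4 at -0.12, Itga2b at -0.14, Itga10, a further collagen-binding chain, at -0.42 and Itgb2, a leukocyte chain, at -0.43 on the log2 scale, none past the threshold (edgeR adjusted p = 0.336, 0.905, 0.905, 0.767, 0.621 and 0.535). Itga4 passed with the mitochondrial share (1.06) and the Malat1 share (1.11) as a covariate. Itga2, Itgad, Itgax and Itgb2l had 0 counts in all 11 libraries.

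Among the collagen ligands on the list, 5 of 7 fell and 0 rose in RGECO, with a median log2 fold change of -0.64. Over all genes tested, 4.93% were lower and 3.42% higher. Col1a1 was at -1.98, Col3a1 at -0.80, Col1a2 at -0.74, Col4a2 at -0.64 and Col5a2 at -0.58 (edgeR adjusted p = 7.18e-05, 0.00106, 0.00418, 0.00383 and 9.49e-04). Col1a1, Col1a2, Col3a1 and Col5a2 code for chains of fibrillar collagens, the ligands of alpha11beta1. With all 12 libraries 0 of the 7 passed, and on log2(TPM + 1) 3 passed.

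Of the laminin chains 8 of 10 were tested, 2 rose and 0 fell, with a median of 0.09. Beside this, 3.42% of all genes tested were higher and 4.93% lower. Lama2, the alpha chain of muscle basement membrane, was at 0.56 (edgeR adjusted p = 0.0244). Lama2 no longer passed when WT replicate 1, RGECO replicate 2 or RGECO replicate 3 was left out (edgeR adjusted p = 0.0528, 0.0644 and 0.0623). On log2(TPM + 1), and with all 12 libraries, 0 of the 8 passed.

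Of the RGD-type ligands, a list set by name in which the RGD motif itself was not checked, 14 of 15 were tested, 3 rose and 5 fell, with a median of -0.36. The shares over all genes tested were 3.42% higher and 4.93% lower. Npnt, nephronectin, the ligand of alpha8beta1, rose by 0.46 (adjusted p = 0.00848) in tissues where Itga8 itself was at or below the counting floor. Fbln5 fell by 1.13, Thbs1 by 0.55, Ccn1 by 0.52 and Postn by 0.77 on the log2 scale, and Ccn2 rose by 0.47 (edgeR adjusted p = 6.09e-04, 0.00271, 0.0145, 0.0283 and 0.0268). The call of Ccn1 was lost without RGECO replicate 2 or 6 (adjusted p = 0.0651 and 0.0576). Ccn2 no longer passed when WT 1, WT 4, RGECO 1 or RGECO 6 was left out (0.0584, 0.0523, 0.0776 and 0.0596), and Postn when WT 4, WT 5, RGECO 1, RGECO 2 or RGECO 5 was left out (0.0575, 0.0700, 0.0731, 0.0632 and 0.0553). With all 12 libraries 2 of the 14 passed, with the replicate block 4, and on log2(TPM + 1) 4.

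**Figure D5:**
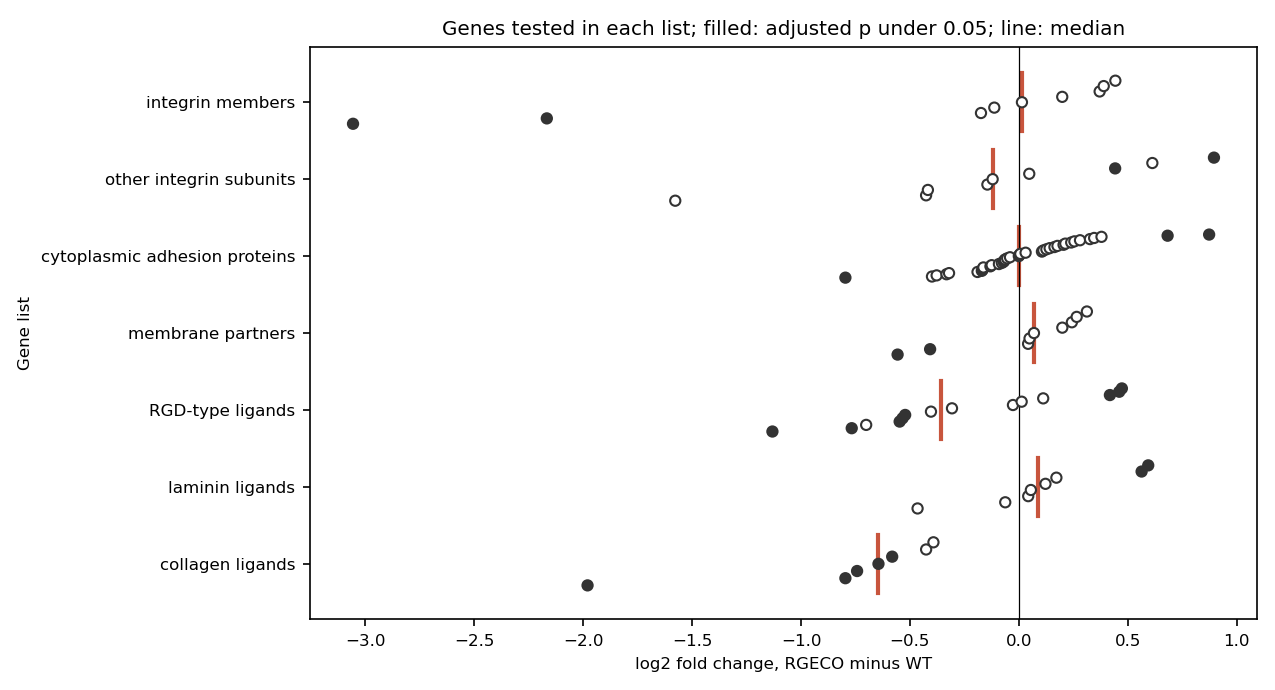
log2 fold change (RGECO minus WT) of every gene tested in each list (points, filled where adjusted p is under 0.05), with the median of each list (line). The collagen ligands have a median of -0.64, and the cytoplasmic adhesion proteins cluster around a median of 0.00.

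Of the 43 genes on the list of cytoplasmic adhesion proteins, 39 were tested, 2 rose, 1 fell and 36 did not pass, with a median log2 fold change of 0.00. The 3 calls among 39 are near the 8.35% called among all genes tested. The 95% interval lay inside 2-fold for 36 of the 39, beside 74.0% of all genes tested. Ptk2b, a calcium-responsive relative of focal adhesion kinase, rose by 0.87 and Lims2, a partner of integrin-linked kinase, by 0.68, while the adaptor Nedd9 fell by 0.80 (edgeR adjusted p = 7.39e-04, 0.0161 and 5.90e-05). Lims2 lost its call with all 12 libraries (adjusted p = 0.0745). Talin (Tln1) at 0.24, vinculin (Vcl) at 0.11, Ilk at 0.00, kindlin-2 (Fermt2) at -0.08, melusin (Itgb1bp2) at -0.17 and focal adhesion kinase (Ptk2) at -0.19 did not pass, and each had its 95% interval inside 2-fold. The widest of these 6 intervals was that of Fermt2, from -0.34 to 0.18.

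All 9 membrane partners were tested, and 0 rose and 2 fell, beside 3.42% higher and 4.93% lower of all genes tested. The syndecan Sdc4, a co-receptor for fibronectin, fell by 0.56 and Slc3a2, the heavy chain that binds beta1 tails, by 0.41 on the log2 scale (edgeR adjusted p = 7.21e-04 and 0.0270). The Slc3a2 call was lost without WT replicate 1, 2, 3, 4 or 5 (adjusted p = 0.0528, 0.0551, 0.0766, 0.0525 and 0.0738) or RGECO replicate 1, 2 or 6 (0.0696, 0.0523 and 0.0960). With all 12 libraries neither passed, and on log2(TPM + 1) 1 passed.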

How the data were processed

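The authors deposited Salmon's estimated counts and TPM, both per gene and merged over the samples, per the file headers. Counts are not normalised, and TPM is corrected for transcript length and sums to 1000000 per library. Salmon, STAR, bedtools 2.25.0 and BWA 0.7.12-r1039 and the builds mm10, hg19 and GRCm39 are named, without roles, per the submitters' processing notes. Annotation and strandedness: not given in the sources used here, so antisense or overlapping genes cannot be told apart. Gene spans are from GENCODE M21 (GRCm38).

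Estimated counts were rounded to whole numbers, then compared by edgeR 4.0.16 under R 4.3.3 (filterByExpr, TMM, robust quasi-likelihood F test, Benjamini-Hochberg adjustment over 13318 genes, threshold 0.05), on 6 WT and 5 RGECO libraries with at least 1000000 counts. Standard errors and intervals come from the F statistic. Alternatives used limma 3.58.1 on log2(TPM + 1) or log2(TPM + 0.1), DESeq2 1.42.0, RLE scaling, no filter, all 12 libraries, a replicate block, covariates, and each library left out. Nothing in the labels says that replicates were separate cultures, and a p-value then reflects only sample-to-sample spread, possibly technical. The floor of 3 counts covers counting error only.

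All 10 members, all other integrin genes tested, 6 fixed adhesion genes and up to 6 called genes per list with the smallest adjusted p are named, except 1 called gene that is not reported here. Likeness was taken for Itga11, Itga7 and Itga8 over genes averaging at least 4 in log2 CPM that are not predicted genes. Members, lists and rules were chosen with earlier results of these data known.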

Additional observations from a re-analysis of the deposited data

How the results depend on the processing

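Itga11 kept its direction and its call under all 21 alternatives. The fit over all genes called 1112 genes (456 higher, 656 lower), against 1595 with DESeq2, 605 on log2(TPM + 1) (344 higher, 261 lower), 587 on log2(TPM + 0.1), 258 on log2(TPM + 1) with no filter, 3133 with the mitochondrial share, 2771 with the Malat1 share and 785 to 1140 with 1 library left out. Of the members 2 were called, against 3 with DESeq2, 1 on log2(TPM + 1) with no filter, 1 with all 12 libraries, 7 with the mitochondrial share, 6 with the Malat1 share and 1 to 2 with 1 library left out. Fewer members were fitted where Itga1 failed the filter, and otherwise the cause was not tested. Beside the covariate fits, calls ranged from 0 to 3 (2 as reported) among other integrin subunits, 2 to 4 (3) among cytoplasmic adhesion proteins, 0 to 2 (2) among membrane partners, 0 to 7 (5) among collagen ligands, 0 to 3 (2) among laminin ligands and 2 to 9 (8) among RGD-type ligands. With the mitochondrial and the Malat1 share they were 4 and 4, 13 and 10, 3 and 3, 7 and 7, 3 and 2, and 10 and 9 in that order. Removing the filter on low counts moved the median log2 fold change of all genes to -0.11. Same-numbered libraries of the lines correlated at -0.15 to 0.36, over 0.1 in 1 of 5 pairs, and 1 of 5 RGECO libraries correlated best with its own number. With so few pairs this check cannot tell whether the replicate numbers pair the samples, and the labels do not say. The replicate block called 777 genes and 2 members and ended 4 calls among the 47 named genes, among them those of Itgb3, Ccn2 and Postn.

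Directions turned only in genes that did not pass. Itga3 (0.01) was at -0.027 with all 12 libraries, -0.044 with the replicate block, -0.11 with the mitochondrial share, -0.14 with the Malat1 share and -0.042 to 0.11 with 1 library left out. Ilk was at 0.014 with RLE scaling, 0.013 with DESeq2, 0.096 and 0.097 on log2(TPM + 1) and log2(TPM + 0.1), 0.096 with no filter there, 0.0039 with the block, 0.0025 with the mitochondrial share and -0.036 to 0.031 with 1 library left out. Fermt2 was at 0.46 on each TPM scale, 0.030 with the mitochondrial share and 0.023 with the Malat1 share. Itgb4 was at 0.43 on log2(TPM + 1) with or without the filter and 0.50 on log2(TPM + 0.1), and at -0.42 to 0.12 with 1 library left out. Itga2b went from -0.25 to 0.031 and Itgb6 from -0.024 to 0.14 with 1 library left out, and Vcl was at -0.10 with all 12 libraries.

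In level order, 8 to 10 of 10 members kept their rank with 1 library left out in WT and likewise in RGECO, and 7 kept it in RGECO by CPM in place of TPM. By estimated counts in place of TPM, the mean WT shares of the summed alpha members were 1.99% for collagen-binding, 68.0% for laminin-binding and 30.0% for RGD-binding chains, 58.4% for Itga7 and 22.2% for Itga5. In RGECO they were 74.6% for laminin-binding and 25.0% for RGD-binding chains, 65.1% for Itga7 and 17.5% for Itga5. Itga1 and Itga8 are limited by depth, and differences in them beyond the counts given were not detectable.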

Other observations

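In RGECO replicate 4, the library with 825 counts, all 10 members had 0 counts, and of the 17 other integrin subunits only Itgb8 had any, with 4 counts. In the fits with all 12 libraries this library therefore adds no count to a member. It is near empty, so calls lost or gained in those fits cannot be read as weak or firm.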
